A study of Mus musculus with 53 samples.

Results

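The genes described here are the embryonic globins Hbb-bh1, Hbb-y and Hba-x, the erythroid transcription factors Gata1, Klf1 and Nfe2, and the erythroid heme enzyme Alas2. They were chosen by name: 11 of the 45037 probe sets on the arrays carry 1 of these symbols and no other, and together they report 7 of the 18193 named genes measured. Hbb-bh1 and Hbb-y each have 3 probe sets and the other genes have 1. Each gene is represented by its brightest probe set, judged on the mean of the 53 arrays, and values are in the units of the deposited signal.

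The first red cells of the mouse embryo form in the blood islands of the yolk sac, where blood and endothelium arise together from mesoderm that expresses the receptor gene Kdr. These primitive erythroid cells assemble embryonic haemoglobins, in which Hba-x gives the alpha-like chain (zeta) and Hbb-bh1 and Hbb-y give the beta-like chains (beta-h1 and epsilon-y). Gata1 is the zinc-finger factor that drives the red cell programme, Klf1 binds CACCC elements in globin and other red cell genes, and Nfe2 is the large subunit of the NF-E2 factor that acts at the globin locus control region. Alas2 makes the first, rate-limiting step of heme synthesis in red cells. Ezh2 and Eed are subunits of polycomb repressive complex 2, which methylates lysine 27 of histone H3.

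The study measured RNA on 53 arrays in 15 groups, in order to compare mouse embryonic stem (ES) cells that lack Ezh2 or Eed with wild-type ES cells, undifferentiated and during differentiation. Differentiation was started by withdrawing LIF, the cytokine that holds mouse ES cells undifferentiated, and ES cells grown on feeders were depleted of them before harvest. Wild-type cells came from line J1 (2 arrays on day 0, 2 on day 2, 3 on day 6), line CJ7 (2 arrays each on days 0, 2, 6 and 8) and line E14tg1 (3 arrays on day 0). Ezh2-null cells gave 6, 4, 5 and 2 arrays on days 0, 2, 6 and 8, and Eed-null cells gave 5, 2 and 2 on days 0, 2 and 6. The labels name no parental line for either mutant, so genotype and cell line cannot be told apart. The remaining groups were mesoendodermal cells sorted by GFP under the brachyury (T) promoter (2 arrays), Sox1-GFP neuronal progenitors (3 arrays), neuronal stem cells (2 arrays) and embryonic fibroblasts of the mouse (MEF, 2 arrays). Replicates carry the word biological in their titles, but separate cultures are not named. The limma p-values therefore measure only the spread between these samples, pooled over all groups in each fit.

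Upstream sequence was available for 5 of the 7 genes, and 3 windows are shown because these genes were high on the same arrays. Each is the 250 bases before the gene's start, from RefSeq on build GRCm38.p6, written 5′ to 3′ on the gene's strand. Capitals mark GATA motifs (the letters GATA with A or T before them and A or G after them) and CACCC motifs, each on either strand.
Hbb-y, chr7:103853208-103853457, minus strand: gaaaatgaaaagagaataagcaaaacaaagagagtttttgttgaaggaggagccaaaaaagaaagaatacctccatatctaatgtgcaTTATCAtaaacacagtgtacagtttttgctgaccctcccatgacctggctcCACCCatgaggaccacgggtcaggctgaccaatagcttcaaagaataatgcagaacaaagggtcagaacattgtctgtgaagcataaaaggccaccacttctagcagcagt
Hba-x, chr11:32276350-32276599, plus strand: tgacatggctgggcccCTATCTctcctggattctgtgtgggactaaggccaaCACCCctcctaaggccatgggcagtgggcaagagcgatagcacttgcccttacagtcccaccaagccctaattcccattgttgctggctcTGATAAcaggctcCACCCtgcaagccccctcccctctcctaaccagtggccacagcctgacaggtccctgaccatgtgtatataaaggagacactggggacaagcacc
Alas2, chrX:150547167-150547416, plus strand: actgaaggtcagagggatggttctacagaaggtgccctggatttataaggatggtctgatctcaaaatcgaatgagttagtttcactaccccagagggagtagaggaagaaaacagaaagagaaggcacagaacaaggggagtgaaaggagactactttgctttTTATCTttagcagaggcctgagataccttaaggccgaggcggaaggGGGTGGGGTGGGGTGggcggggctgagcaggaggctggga
The Hbb-y window held 1 GATA and 1 CACCC match, the Hba-x window 2 and 2, and the Alas2 window 1 and 3. In none of the 3 did a GATA match share a base with a CACCC match. Of all 32851 promoter windows of this length, 26.5% held a GATA match and 52.0% a CACCC match, so neither is unusual in a promoter. A CCAAT match, found in 33.8% of all windows, was present upstream of Hbb-y and of Klf1 and absent from the other 3. The NF-E2 core (TGAGTCA on either strand) was in 4.5% of all windows and in none of the 5. The Klf1 window also held 1 GATA and 1 CACCC match, and the Gata1 window 0 GATA and 2 CACCC matches. These are matches of letters and no binding was measured.

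Ezh2 signal followed the labels: it was 652.7 and 665.8 in wild-type arrays at day 8 against 155.0 and 162.1 in Ezh2-null arrays, and it did not exceed 245.9 in any Ezh2-null array. The lead Eed probe set read 2819.9 to 3098.6 in Eed-null arrays at day 0 and 2171.9 to 2884.9 in wild-type arrays, so it does not check that label. The arrays of days 2 and 6 fell into 2 sets by a score, from the difference between the 2 brightest probe sets of 3919 genes. The leading component of these differences, the score, held 38.3% of the variance. Array set 1 held 8 arrays (scores of -19.4 to -7.3) and array set 2 held 14 (scores of 19.3 to 28.6). Set 1 held the J1 wild-type replicates 1 and 2 and the Ezh2-null replicates 1 and 2 of days 2 and 6. Set 2 held the other wild-type and Ezh2-null arrays of those days (J1 replicate 3 and CJ7) and all Eed-null arrays of those days. The day 8 arrays scored -16.5 to -13.8, like set 1. The T-GFP, Sox1-GFP, neuronal stem cell and MEF arrays also scored negative (-26.0 to -6.8). Day 0 arrays, all of undifferentiated ES cells, ran from -10.3 to 9.7, and the 2 CJ7 arrays among them scored -9.5 and -0.5. The labels name no such batch, and what set the arrays apart was not tested.

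Embryonic globins were high in wild-type cells at day 8 and in the wild-type day 6 arrays of 1 array set, and far lower on all other arrays. Hbb-bh1, the beta-h1 globin, read 4661.6 and 4059.2 in the J1 arrays of set 1. In set 2 it read 113.0 in the third J1 array, and 41.3 and 98.3 in the CJ7 arrays. At day 8, both CJ7 arrays were high again, at 4462.8 and 3891.6. Thus 4 wild-type arrays lay at 3891.6 or above and 3 did not pass 113.0, and both lines stood on both sides, J1 within day 6 and CJ7 between days 6 and 8. Over the 46 arrays that are not wild type at day 6 or 8, Hbb-bh1 ran from 4.4 to 40.9 with a median of 10.6. All 3 wild-type arrays of set 2 were therefore above every one of those 46, by a small margin in the lowest.

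**Figure D1:**
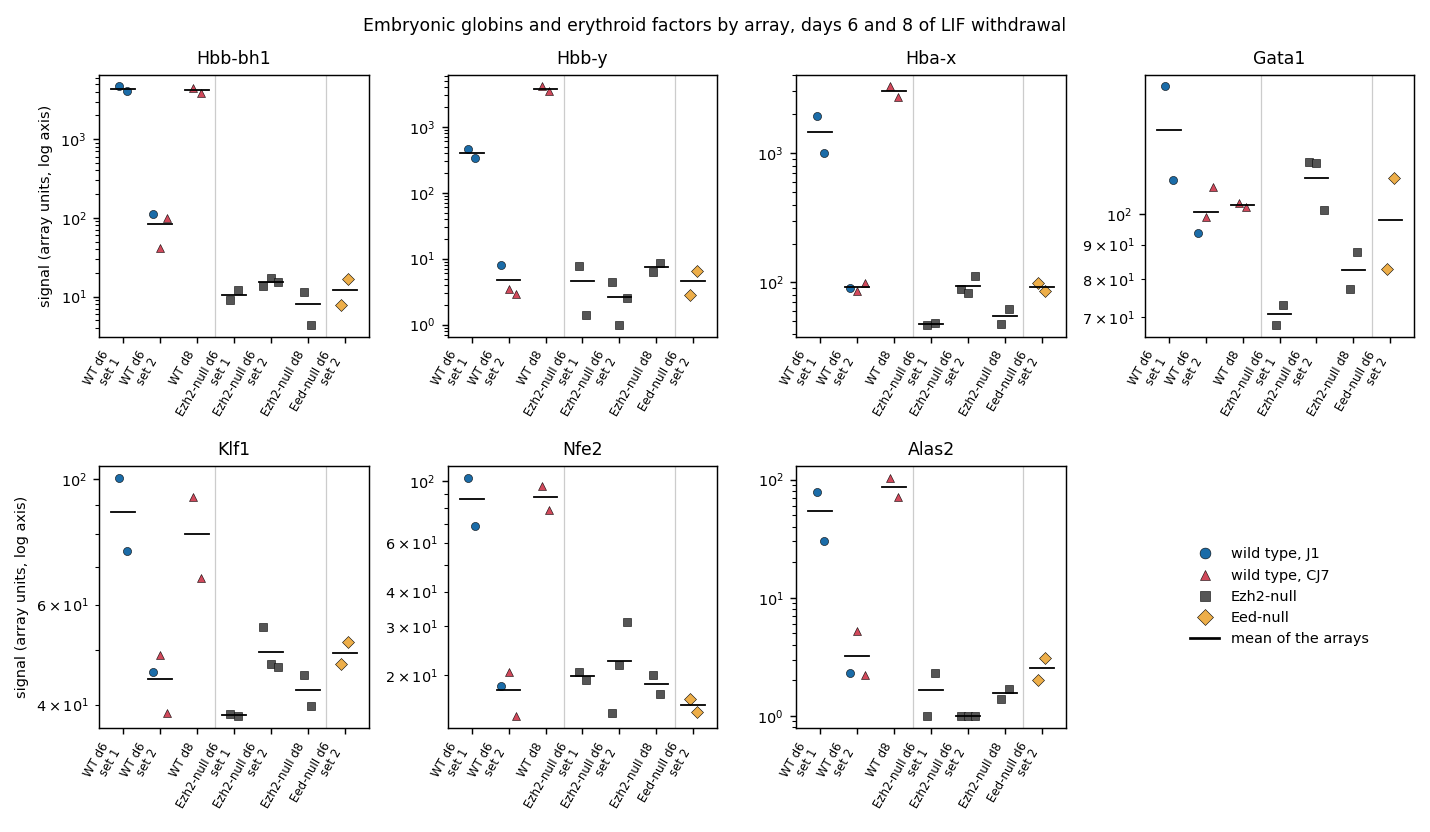
Signal of the lead probe set of each gene (array units, log axis, each panel with its own range) on every array of days 6 and 8, by genotype, day and array set. Points are arrays, marked by line or genotype, and bars are means; in wild-type cells the 3 globins, Nfe2 and Alas2 are high in set 1 of day 6 and at day 8.

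Hbb-y, the epsilon-y globin, was also high on these 4 arrays, but far higher at day 8 than at day 6. It read 458.4 and 335.8 in the wild-type day 6 arrays of set 1, and 4104.1 and 3519.5 at day 8. In the wild-type day 6 arrays of set 2 it read 8.0, 3.5 and 2.9, inside the range of 1.0 to 9.6 seen over the 46 other arrays. The lowest day 8 array was thus far above the highest day 6 array, and the day 6 arrays of set 2 did not stand out at all. Hba-x, the zeta globin, read 1931.5 and 1005.4 in set 1 at day 6, and 3275.2 and 2733.4 at day 8. It read 89.8, 86.1 and 99.0 in set 2 at day 6, within the 22.9 to 139.9 of the 46 other arrays, whose highest was an Eed-null array of day 2.

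Hbb-bh1 and Hbb-y stayed between 1.0 and 17.2 in the mutant arrays of days 6 and 8, while Hba-x was higher in set 2 than in set 1. Ezh2-null arrays at day 6 read 9.0 and 12.2 (set 1) and 13.5, 17.2 and 15.1 (set 2) for Hbb-bh1, and those of day 8 read 11.5 and 4.4. For Hbb-y they read 7.8 and 1.4, then 4.5, 1.0 and 2.5, and at day 8 they read 6.2 and 8.6. In wild-type cells at day 0, Hbb-bh1 ran from 5.0 to 15.5 (median 13.3) and Hbb-y from 3.2 to 6.3 (median 4.2), so the mutant values spread around those of undifferentiated cells, some just above and some below. Hba-x in Ezh2-null cells read 47.2 and 48.6 in set 1, 88.5, 83.2 and 112.3 in set 2, and 47.9 and 61.8 at day 8. The mutant level of Hba-x thus differed by array set, and the set 2 wild-type arrays lay inside the set 2 mutant range. Eed-null arrays at day 6, all in set 2, read 7.9 and 16.5 for Hbb-bh1, 2.8 and 6.4 for Hbb-y, and 98.9 and 86.0 for Hba-x.

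The other probe sets of the beta-like globins told the same samples apart. The further Hbb-bh1 probe sets read 3560.7 to 4890.5 and 2771.1 to 3422.6 on the 4 high wild-type arrays, 42.4 to 73.4 and 34.1 to 48.7 on the 3 wild-type day 6 arrays of set 2, and at most 22.6 and 24.6 elsewhere. The further Hbb-y probe sets read 310.4 to 3738.0 and 35.8 to 721.8 on the 4 high arrays, and at most 20.2 and 14.2 on the 46 other arrays. Beta-like globins are close copies of each other, and both lead probe sets are of a kind (suffix x) whose probes can match more than 1 transcript, so each may read some of the other's RNA. Adult globins gave no such signal: on the day 8 wild-type arrays Hbb-b2 ran from 11.5 to 20.8, Hba-a1 from 16.1 to 34.9 and Hba-a2 from 27.6 to 43.7. At day 0 in wild-type cells the same genes ran from 3.5 to 24.1, from 27.6 to 53.7 and from 23.2 to 55.0.

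Nfe2 and Alas2 followed the globins at lower signal. Nfe2 read 102.6 and 68.9 in the wild-type day 6 arrays of set 1, 18.3, 20.5 and 14.3 in those of set 2, and 95.9 and 78.6 at day 8. Its highest value on the 46 other arrays was 31.0, so the 4 arrays stood above all of them and the set 2 arrays did not. Alas2 read 79.0 and 30.3, then 2.3, 5.2 and 2.2, and 103.6 and 70.5 at day 8, against 1.0 to 12.8 on the 46 other arrays. In Ezh2-null cells Nfe2 read 20.6 and 19.3, then 14.6, 21.8 and 31.0, and at day 8 20.1 and 17.2. Alas2 did not pass 2.3 in any Ezh2-null array of day 6 or 8, and in Eed-null cells at day 6 it read 2.0 and 3.1.

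Gata1 and Klf1 moved far less. Gata1 read 155.2 and 112.3 in the wild-type day 6 arrays of set 1, 93.5, 99.0 and 109.6 in those of set 2, and 103.9 and 102.3 at day 8. In Ezh2-null cells it read 68.3 and 73.2, then 119.6, 119.1 and 101.4, and 77.2 and 87.8 at day 8. Wild-type arrays were thus higher within set 1 and at day 8, while in set 2 the 2 genotypes overlapped. At day 8, 22.5% of all genes had Ezh2-null arrays below wild type without overlap, and Gata1 was not called there. Klf1 read 100.4 and 74.6, then 45.7, 48.9 and 38.7, and 92.7 and 66.9 at day 8 in wild-type cells. Ezh2-null cells read 38.5 and 38.2, then 54.7, 47.1 and 46.5, and 45.1 and 39.8 for Klf1. In Eed-null cells at day 6 Gata1 read 82.6 and 113.3 and Klf1 47.1 and 51.6, inside the range of the Ezh2-null arrays of that day.

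Differences were tested with limma on log2(signal + 32), so fold changes of dim genes are understated. The spread of a gene was pooled over all groups in a fit. An n therefore names the arrays compared, while the SE and p-value rest on other groups too. For Hbb-bh1 in Ezh2-null against wild-type cells the SE was 0.16 within set 1 at day 6 and 0.91 at day 8. Both compare 2 arrays with 2, but the day 8 fit also held the split wild-type day 6 group. A gene was called at a Benjamini-Hochberg adjusted p under 0.05, over 13807 genes, and at least a 2-fold change. Genes entered if above their array's median on at least 2 arrays. Hbb-bh1, Hbb-y, Nfe2 and Alas2 met that only on wild-type arrays of days 6 and 8, so counts over the members are a description. From day 0 to day 8 in wild-type cells, 5 of the 7 genes rose, where 7.71% of all genes tested were called higher. Hbb-y rose by 6.71 ± 0.48 (log2 ± SE, n = 2 and 7, limma adjusted p = 1.2e-14). Hbb-bh1 rose by 6.61 ± 0.73 (limma adjusted p = 7.9e-10) and Hba-x by 5.32 ± 0.51 (2.3e-11). Alas2 rose by 1.65 ± 0.21 (limma adjusted p = 2.6e-08) and Nfe2 by 1.33 ± 0.21 (2.4e-06). Klf1 differed by 0.36 ± 0.14 (limma adjusted p = 0.034), short of the fold minimum, and Gata1 by 0.15 ± 0.15 (0.42).

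At day 6 against day 0 in wild-type cells, 3 of the 7 were called higher over all arrays (background 5.96%), but these averages mix the array sets. Against day 0, set 1 alone gave 5 genes higher (background 6.79%): Hbb-bh1 by 6.67 ± 0.13, Hba-x by 4.23 ± 0.15, Hbb-y by 3.54 ± 0.09, Nfe2 by 1.30 ± 0.13 and Alas2 by 1.14 ± 0.14 (n = 2 and 7, limma adjusted p of 6.8e-08 or less). Set 2 alone gave 1, Hbb-bh1, by 1.37 ± 0.14 (n = 3 and 7, limma adjusted p = 1.3e-10, background 6.55%). Hba-x differed there by 0.70 ± 0.11 and Hbb-y by 0.01 ± 0.07. Against the J1 arrays of set 1 at day 6, the CJ7 arrays of day 8 were higher for Hbb-y by 3.17 ± 0.11 (n = 2 and 2, limma adjusted p = 1.4e-19) and for Hba-x by 1.08 ± 0.19 (0.0019), where 0.188% of all genes were called higher. Hbb-bh1 differed by -0.06 ± 0.16 (limma adjusted p = 1.0) and Nfe2 by 0.03 ± 0.16 (1.0). Day and line cannot be told apart in that comparison. Against set 2 at day 6 (J1 replicate 3 and the CJ7 arrays), day 8 was higher for Hbb-bh1 by 5.24 ± 0.19 and for Hbb-y by 6.71 ± 0.09. Hba-x was higher there by 4.61 ± 0.14, Alas2 by 1.74 ± 0.12 and Nfe2 by 1.26 ± 0.14 (limma adjusted p of 1.9e-08 or less for each of these genes). Klf1 differed by 0.54 ± 0.12, under the fold minimum, and Gata1 by 0.03 ± 0.13. The day 8 arrays scored like set 1, so day and array set cannot be told apart there. Over all day 6 arrays 4 of the 7 genes were called higher at day 8 (background 0.782%), Hbb-bh1 among them at 3.12 ± 0.76 (limma adjusted p = 0.017). In a fit of those 7 arrays alone 0 were called (limma; 3 of 7 at an unadjusted p under 0.05).

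The balance of the beta-like globins within an array shifted accordingly. The signal of Hbb-y divided by that of Hbb-bh1 was 0.0983 and 0.0827 in the wild-type day 6 arrays of set 1, and 0.920 and 0.904 at day 8. That is a shift of 3.34 on the log2 scale, with no overlap between the days (exact permutation test, two-sided p = 0.33, the smallest that 2 against 2 arrays allow). The day 6 arrays were of line J1 and the day 8 arrays of CJ7, so day and line cannot be told apart. With 1 of the other probe sets of each gene the ratios were 0.0169 and 0.0129 against 0.215 and 0.190, a shift of 3.78. The ratio shows that the 2 genes changed unequally, not how much of each chain was present.

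At day 8 the embryonic globins were far lower in Ezh2-null than in wild-type cells, with no overlap between arrays, as for 22.5% of all genes in this direction with 2 arrays against 2. Against wild type, 5 of the 7 genes fell and none rose (background called lower, 0.282%). Hbb-bh1 fell by 6.72 ± 0.91 on the log2 scale (n = 2 and 2, limma adjusted p = 4.7e-06), Hbb-y differed by -6.60 ± 0.60 (4.0e-10) and Hba-x by -5.13 ± 0.63 (7.7e-07). Alas2 differed by -1.81 ± 0.26 (limma adjusted p = 1.7e-05) and Nfe2 by -1.23 ± 0.27 (0.0043), and all 5 were called. Without wild-type day 8 replicate 1 the Nfe2 difference was -1.13 with an adjusted p of 0.14, and without Ezh2-null day 8 replicate 2 it was -1.19 with an adjusted p of 0.072. Klf1 differed by -0.58 ± 0.17 (limma adjusted p = 0.066) and Gata1 by -0.24 ± 0.18 (0.68); neither passed. In whole cultures, fewer erythroid cells and less RNA per cell cannot be told apart.

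**Figure D2:**
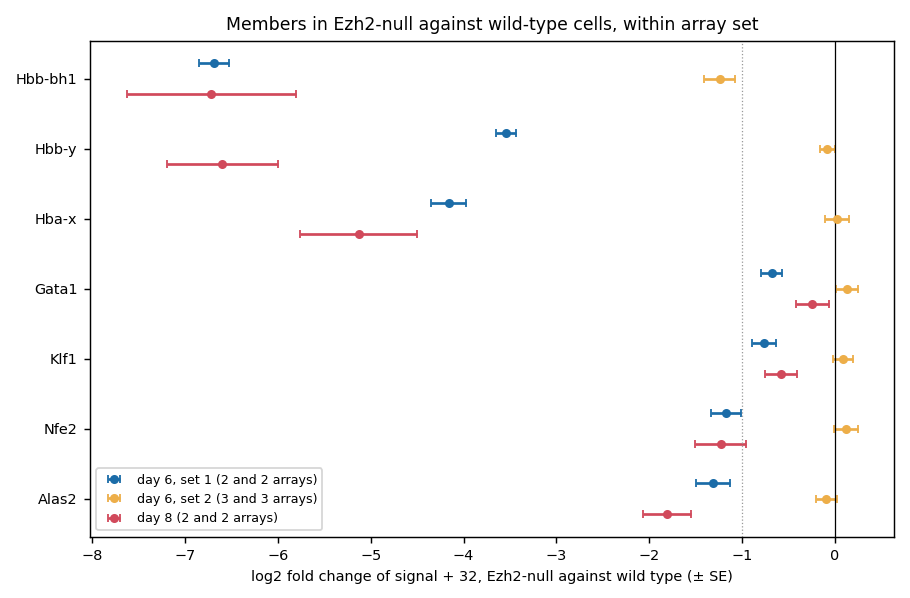
Log2 fold change of signal + 32 (± SE) in Ezh2-null against wild-type cells for each gene, at day 6 within array set 1 and array set 2 and at day 8; the dotted line marks a 2-fold decrease. Hbb-bh1 lies at -6.69, -1.24 and -6.72 in the 3 comparisons, and the other 6 genes lie between -0.09 and 0.13 in set 2.

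At day 6 the size of the genotype difference depended on the array set. Within set 1, Ezh2-null cells were lower for 5 of the 7 genes (background 0.579%), Hbb-bh1 by -6.69 ± 0.16 (n = 2 and 2, limma adjusted p = 1.8e-24), Hba-x by -4.16 ± 0.19 (4.9e-17), Hbb-y by -3.54 ± 0.11 (2.6e-21), Alas2 by -1.31 ± 0.18 (5.5e-06) and Nfe2 by -1.17 ± 0.16 (8.1e-06). Klf1 and Gata1 were lower there by less than the fold minimum, at -0.76 ± 0.13 (limma adjusted p = 9.9e-05) and -0.68 ± 0.11 (5.5e-05). Within set 2, Hbb-bh1 alone was called (background 2.92%), at -1.24 ± 0.17 (n = 3 and 3, limma adjusted p = 1.8e-07). Klf1 and Gata1 differed there by 0.09 ± 0.11 and 0.13 ± 0.12, so neither had a direction shared by both sets. Over both sets together 3 genes were called (background 1.14%), Hbb-bh1 at -3.42 ± 0.58, Hba-x at -1.65 ± 0.40 and Hbb-y at -1.47 ± 0.38. When the fit held only these 10 arrays, 0 of the 7 were called (limma; 1 of 7 at an unadjusted p under 0.05; Hbb-bh1 adjusted p = 0.075).

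Eed-null cells at day 6 can be compared only within set 2, where 1 of the 7 genes fell (background 1.22%). Hbb-bh1 fell by 1.34 ± 0.19 on the log2 scale (n = 2 and 3, limma adjusted p = 9.0e-07). Hba-x differed there by 0.01 ± 0.14 and Hbb-y by -0.01 ± 0.09. Against all wild-type day 6 arrays 2 genes were called (background 1.25%), Hbb-bh1 at -3.46 ± 0.76 and Hbb-y at -1.42 ± 0.50 (limma adjusted p = 0.049); the Hbb-y call is absent within set 2. In a fit of those 7 arrays alone 0 were called (limma; 0 of 7 at an unadjusted p under 0.05). Ezh2-null and Eed-null arrays of set 2 differed in none of the 7 by limma, also at an unadjusted p under 0.05, while 1.76% of all genes were called in either direction. For Hbb-bh1 that difference was 0.10 ± 0.19. These comparisons share the wild-type arrays of day 6.

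Each genotype was also set against its own day 0. None of the 7 was called in Ezh2-null cells at day 6 or day 8 or in Eed-null cells at day 6 (limma, also 0 of 7 at an unadjusted p under 0.05 in each), although 8.64%, 7.11% and 5.55% of all genes were called higher there. The spread in that fit also came from the split wild-type day 6 group. Fits of only the arrays compared also called 0, with 1, 0 and 2 of 7 at an unadjusted p under 0.05 (limma). With the day 6 arrays of set 2 alone, Hba-x was higher than at day 0 by 0.82 ± 0.11 in Ezh2-null (n = 3 and 6, limma adjusted p = 3.5e-08) and by 0.44 ± 0.13 in Eed-null cells (n = 2 and 5, 0.0051), under the fold minimum, beside 0.70 ± 0.11 in wild-type cells. In set 1 it differed by 0.16 ± 0.15 in Ezh2-null cells, where Gata1 was lower by -0.27 ± 0.09 (limma adjusted p = 0.0095), also under the fold minimum. In set 2 Gata1 went the other way in these cells, by 0.23 ± 0.10 (limma adjusted p = 0.047), again under the fold minimum. With the array set as a block, all 3 globins were called higher at day 6 than at day 0 in each mutant. Hbb-bh1 stood at 1.63 ± 0.49 in Ezh2-null (limma adjusted p = 0.0039) and at 2.62 ± 0.72 in Eed-null cells (0.004). That fit gives all genotypes a shared shift between the sets at day 6, so the wild-type split enters the mutant estimates. The day 0 arrays belong to neither set, and these calls do not show a rise in the mutants. Within set 1, Hbb-bh1 differed from day 0 by -0.01 ± 0.13 in Ezh2-null cells. Within set 2 it differed by 0.14 ± 0.14 in Ezh2-null and by 0.05 ± 0.17 in Eed-null cells. The interaction of genotype with day 8 against day 0 was called lower for 5 of the 7 genes (background called lower, 0.253%), with Hbb-bh1 at -6.71 ± 1.04 (limma adjusted p = 2.0e-04) and Hbb-y at -6.62 ± 0.69 (2.3e-08). For day 6 against day 0 within set 1 it was called lower for the same 5 (background 0.558%), with Hbb-bh1 at -6.67 ± 0.19. Within set 2 it was called for Hbb-bh1 alone (background 3.17%), at -1.23 ± 0.20. With both sets in the fit, 3 genes were called lower by the Ezh2-null interaction of day 6 against day 0 (background 1.24%) and 3 by that of day 8 against day 6 (0.478%). The Eed-null interaction called 1, Hbb-bh1 (background 2.41%).

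**Figure D3:**
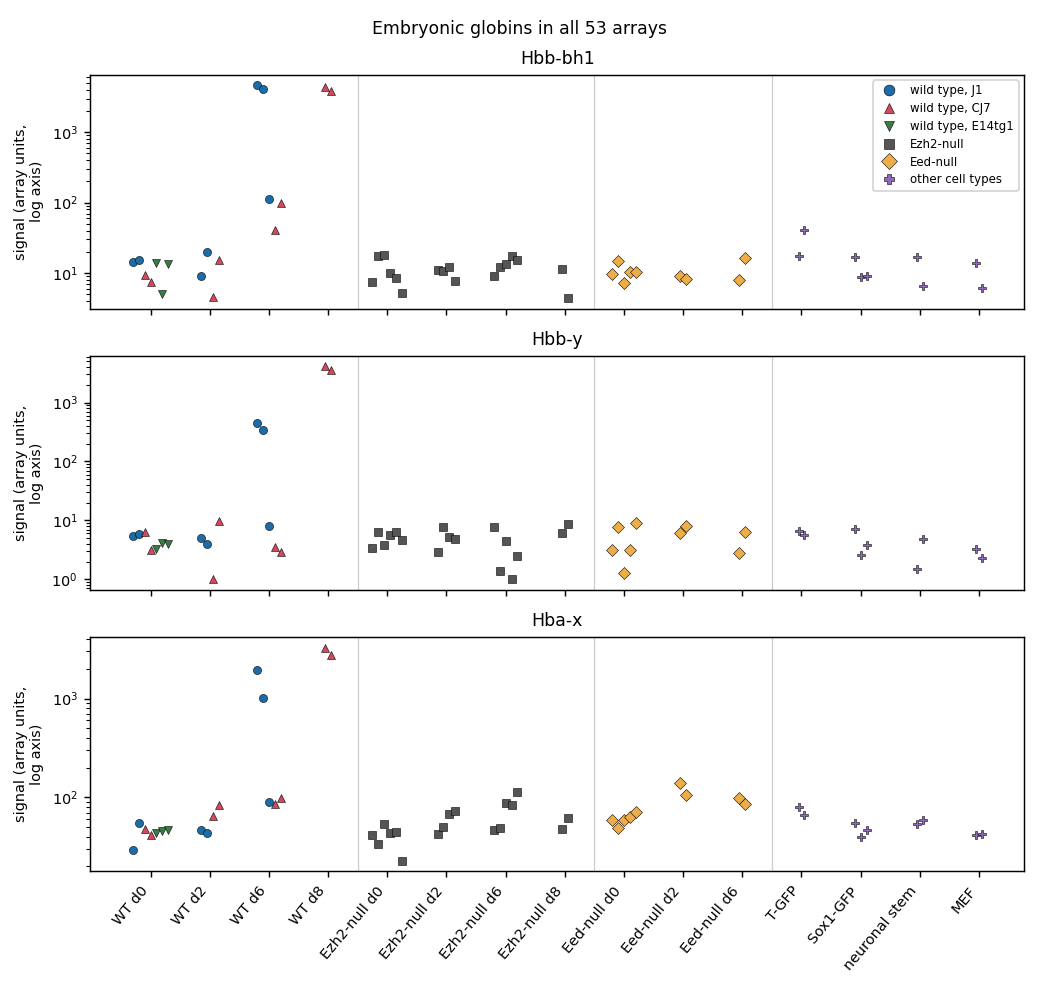
Signal of Hbb-bh1, Hbb-y and Hba-x (array units, log axes) on all 53 arrays by group; points are arrays, marked by wild-type line, mutant genotype or other cell type. Wild-type arrays of days 6 and 8 hold every value above 140, and the wild-type day 6 group is split.

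Across the 15 groups, wild type at day 8 had the highest mean of every member except Gata1 and Klf1. Hbb-bh1 averaged 4177.2 ± 403.9 (SD, n = 2) there and 1794.7 ± 2352.0 (n = 5) in wild type at day 6. Next came the T-GFP mesoendodermal cells with 17.4 and 40.9. The 12 groups below them averaged 8.0 to 13.4, each overlapping its neighbours among those 12. The group next to T-GFP, Ezh2-null at day 6, ran from 9.0 to 17.2 and did not overlap it, while wild type at day 2 reached 20.2. Hbb-y averaged 3811.8 ± 413.4 (n = 2), then 161.7 ± 219.2 (n = 5), and then 2.8 to 7.4 in the 13 other groups, where neighbours in the order overlapped; its ends did not, with Ezh2-null cells at day 8 at 6.2 to 8.6 and MEF at 2.3 to 3.3. For Hba-x, wild type at day 8 (3004.3 ± 383.1, n = 2) and at day 6 (642.4 ± 822.1, n = 5) were followed by Eed-null cells at day 2, with 139.9 and 106.5. Those Eed-null arrays lay above the wild-type day 2 arrays of the same set by 0.54 ± 0.16 (limma adjusted p = 0.028), under the fold minimum.

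Klf1 had another order. It was highest in neuronal stem cells, at 102.3 ± 4.8 (SD, n = 2), then in MEF at 84.6 ± 2.2 (n = 2), and then in wild type at day 8 at 79.8 ± 18.2 (n = 2), which overlapped MEF. Against wild type at day 0 neuronal stem cells were higher by 0.63 ± 0.14 (limma adjusted p = 0.00015) and MEF by 0.43 ± 0.14 (0.0079), both under the fold minimum. The lowest groups were Eed-null at day 0 (37.4 ± 3.9, n = 5) and at day 2 (33.6 ± 2.6, n = 2). At day 0 Eed-null cells were lower than wild type by -0.32 ± 0.10, under the fold minimum (limma adjusted p = 0.011). The arrays did not overlap, as for 9.35% of all genes in this direction. Gata1 group means ran only from 69.2 in MEF to 113.9 in wild type at day 6, and neighbours in that order overlapped except Sox1-GFP cells and MEF at the lower end; Gata1 was above the array's median on 52 of 53 arrays. In T-GFP, Sox1-GFP, neuronal stem cells and MEF, none of the 7 genes was called against wild type at day 0 (limma; 0, 0, 1 and 1 of 7 at an unadjusted p under 0.05, background called higher 5.56%, 9.33%, 12.3% and 14.2%). The spread in that fit also came from the split wild-type day 6 group. With only the arrays compared, 0 were called (limma; 2, 0, 1 and 2 of 7 at an unadjusted p under 0.05). Both T-GFP arrays lay above every wild-type day 0 array for Hbb-bh1, as for 28.0% of all genes. The difference was 0.48 ± 0.73 in the full fit, under the fold minimum (limma adjusted p = 0.64). With only the arrays compared, the adjusted p by limma was 0.026. None of the 7 genes was called in Ezh2-null or Eed-null cells against wild type at day 0 or day 2 (limma; 0 of 7 for Ezh2-null and 1 of 7 for Eed-null at an unadjusted p under 0.05 on each day; background called in either direction 0.0507%, 2.26%, 0.123% and 1.04% for Ezh2-null and Eed-null at day 0, then at day 2). Fits of only those arrays also called 0 (limma; in the same order 1, 2, 0 and 1 of 7 at an unadjusted p under 0.05).

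Over the 15 group means, Hbb-bh1, Hbb-y, Hba-x, Nfe2 and Alas2 followed one another, with Pearson's r between 0.94 and 0.98 in each pair. Gata1 and Klf1 had r between 0.28 and 0.53 with those 5 genes, and 0.10 with each other. The points share the same arrays and the same high wild-type groups, so these are descriptions. The other tested genes nearest to Hbb-bh1 by this measure were Tal1 (r = 0.946), a master factor of blood formation, Fli1 (0.911), an Ets factor of blood and endothelium, Ttr (0.860), the thyroid hormone carrier made by visceral endoderm, and LOC102631979 (0.853). Tfec (0.832), Plek (0.808), Hand2 (0.803) and Hsd11b2 (0.803) came next. Tal1 averaged 108.4 in the wild-type day 6 arrays of set 1, 32.8 in those of set 2, 92.2 at day 8 and 19.8 in Ezh2-null cells at day 8. The genes nearest to Gata1 were Gm14169 (0.805), Taok1 (0.762), Tbc1d10c (0.761), Fgfr4 (0.751), Hdac4 (0.735), Nrip3 (0.719), Hinfp (0.715) and Tmem74 (0.705), none of which is in the lists described next; Tal1, Fli1, Ttr and Hand2 are.

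Among the factors that work beside Gata1 and Klf1, Lmo2 and Zfpm1 were higher in wild-type than in Ezh2-null cells in both array sets and at day 8, and Tal1 within set 1 and at day 8. Of 28 tested erythroid regulators and partners, 8 rose and 1 fell from day 0 to day 8 in wild-type cells (median 0.29, all genes 0.05; background 7.71% higher and 3.69% lower). In Ezh2-null cells 5 rose and 0 fell (median 0.32, all genes 0.06; background 7.11% higher). Among the genes that rose in wild-type cells were Zfpm1 (2.00 ± 0.20), the FOG1 cofactor that binds Gata1, and Lmo2 (1.81 ± 0.21), which bridges Gata1 and Tal1. The largest were Id2 (2.32 ± 0.41) and Bach2 (2.11 ± 0.25). Lmo2 ran from 305.5 to 335.3 in wild-type day 6 arrays of set 1, from 138.3 to 212.5 in set 2 and from 178.7 to 183.8 at day 8. Ezh2-null cells ran from 55.7 to 62.6, from 36.6 to 52.8 and from 46.9 to 52.1, below wild type in each. Tal1 read 91.6 and 125.3 in the wild-type day 6 arrays of set 1 and 79.1 and 105.3 at day 8, above the 25.0 to 37.7 of set 2. In Ezh2-null cells it ran from 18.6 to 28.5 at day 6 and from 16.1 to 23.5 at day 8.

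**Figure D4:**
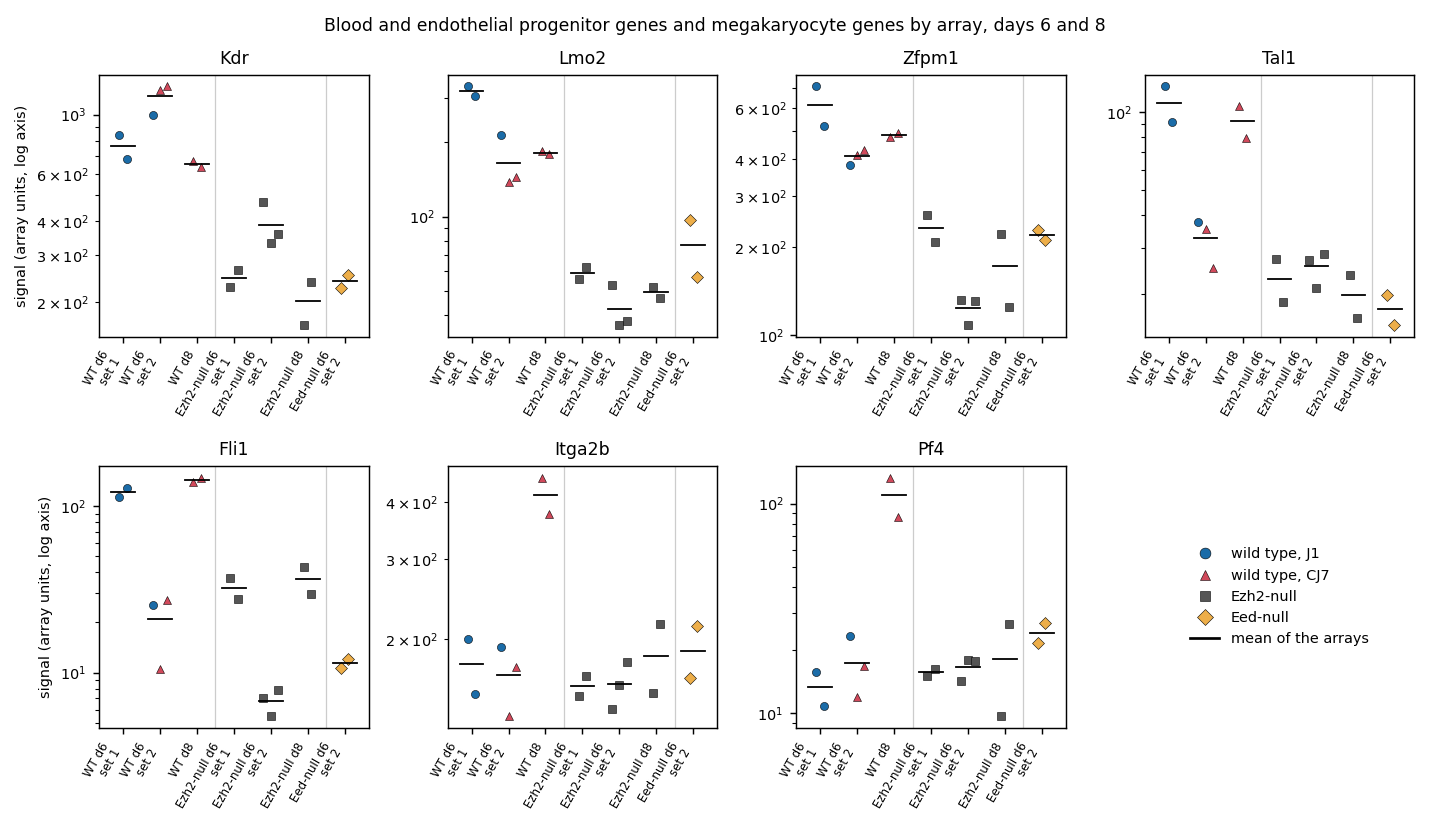
Signal (array units, log axis, each panel with its own range) of Kdr, Lmo2, Zfpm1, Tal1, Fli1, Itga2b and Pf4 on every array of days 6 and 8, laid out by genotype, day and array set; points are arrays and bars are means. Kdr, Lmo2 and Zfpm1 are higher in wild-type than in Ezh2-null arrays in both sets, Tal1 and Fli1 are highest in wild-type set 1 and day 8, and Itga2b and Pf4 at wild-type day 8.

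In Ezh2-null against wild-type cells at day 8, 3 of these 28 fell and 0 rose (median 0.03, all genes 0.03): Lmo2 by -1.39 ± 0.26, Zfpm1 by -1.38 ± 0.25 and Tal1 by -1.26 ± 0.25 (limma adjusted p of 0.0016 or less, n = 2 and 2). The background called lower was 0.282%. At day 6, 2 fell and 1 rose (background 1.14% lower and 1.89% higher), and Lmo2 was lower within set 1 (-1.95 ± 0.15) and within set 2 (-1.39 ± 0.14), as was Zfpm1 (-1.28 ± 0.20 and -1.50 ± 0.16). Tal1 was called within set 1 (-1.35 ± 0.15) and not within set 2. Klf2, a relative of Klf1 active in primitive erythroid and endothelial cells and in ES cells, was the gene that rose, by 1.09 ± 0.28; it was called within set 2 (1.27 ± 0.27) and not within set 1. In Eed-null cells at day 6, Lmo2 (-1.21 ± 0.22) and Zfpm1 (-1.02 ± 0.21) fell over all arrays and Klf2 (1.29 ± 0.37) rose, but within set 2 Klf2 alone was called, at 1.89 ± 0.30.

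Of 20 tested genes of the haemangioblast and endothelium, 4 rose from day 0 to day 8 in wild-type cells (median 0.43, all genes 0.05; background 7.71%). They were Sox17 (3.71 ± 0.45), Gata6 (2.23 ± 0.21), Fli1 (2.22 ± 0.25) and Kdr (2.07 ± 0.20), the VEGF receptor of blood and vessel progenitors. Kdr was high in every wild-type array of day 6, from 680.9 to 842.1 in set 1 and from 997.7 to 1272.2 in set 2, whether globin signal was high or low. Ezh2-null arrays ran from 228.3 to 263.2 and from 331.3 to 470.3, and the difference was -1.51 ± 0.18 within set 1 and -1.53 ± 0.16 within set 2. In Eed-null cells it was -2.14 ± 0.18 within set 2. At day 8, 4 of the 20 were lower in Ezh2-null cells (median -0.60, all genes 0.03; background 0.282%), namely Sox18 (-2.06 ± 0.36), Sox17 (-2.04 ± 0.56), Kdr (-1.57 ± 0.25) and Fli1 (-1.37 ± 0.31).

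The listed genes of red cell maturation beyond the 7 members did not move as a group. Alas2, the erythroid heme enzyme, is a member outside these lists and rose by 1.65 ± 0.21 from day 0 to day 8 in wild-type cells. Of 16 tested genes of heme synthesis and iron, 1 was called higher at day 8 in wild-type cells (background 7.71%), the ferrireductase gene Steap3, and that call rests on 1 array, since the 2 arrays read 40.2 and 5116.1. Of 18 tested red cell membrane and enzyme genes, 0 rose and 1 fell (Dmtn, -1.16 ± 0.22; limma, median 0.07, all genes 0.05; background 3.69% lower). The band 3 anion exchanger Slc4a1 read 104.0 to 110.4 at day 8 in wild-type and 57.4 to 76.8 in Ezh2-null cells, and the erythropoietin receptor Epor 128.9 to 129.7 and 78.0 to 80.8, with neither called. Car2, carbonic anhydrase 2, was lower in Ezh2-null cells at day 6 within set 1 (-1.89 ± 0.21) and set 2 (-1.71 ± 0.15). Both tested adult globins stayed uncalled.

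Other cell types were read from marker lists, and their part in the globin differences was not tested. Of 12 tested megakaryocyte, macrophage and white cell genes, 2 rose from day 0 to day 8 in wild-type cells, Pf4 (1.67 ± 0.28) and Itgb3 (1.52 ± 0.16), with a list median of 0.28 (all genes 0.05; background 7.71%). Against day 6 within set 1, Pf4 rose by 1.63 ± 0.37 and Itga2b by 1.11 ± 0.17; both are genes of megakaryocytes, and Itga2b also marks early blood progenitors. At day 8 both were lower in Ezh2-null cells, by -1.50 ± 0.35 and -1.06 ± 0.17. The white cell gene Ptprc stayed between 12.3 and 22.2 on the 4 day 8 arrays and Mpo between 11.1 and 21.9. No defining marker read 0, since no deposited value lay below 0.4. Alas2 stopped at 1.0, its value on both T-GFP arrays.

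Between the array sets of day 6 the fibroblast markers did not follow the globins, but they too rose with day in wild-type cells. Their summed signal (19 genes) was 2859.0 to 6703.3 in wild-type cells at day 0. It was 9898.6 to 10717.5 in wild-type day 6 arrays of set 1, where globins were high. In set 2, where globins were low, it was 12173.3 to 12996.9, and at day 8 it was 15847.0 to 16629.7. Ezh2-null cells ran from 13093.4 to 14856.9 at day 6 and from 13793.1 to 13812.3 at day 8, against 59791.6 to 70096.4 in MEF. Of 18 tested, 9 rose from day 0 to day 8 in wild-type cells (median 1.03, background 7.71%), and 0 were called by limma between genotypes at day 8 (median -0.19; background 0.282% lower and 0.782% higher). Yolk sac endoderm markers summed to 3447.0 to 4316.8 in wild-type day 6 arrays of set 1 and 3410.9 to 3929.7 in set 2. They summed to 4561.4 to 5285.8 at wild-type day 8 and 2145.3 to 3395.8 in Ezh2-null cells at day 8. Of its genes, Ttr read 138.7 and 408.6 in wild-type day 6 arrays of set 1 and 36.0 to 39.5 in set 2, and 132.1 and 535.0 in the Ezh2-null arrays of set 1, where Hbb-bh1 was low. Of the 3 pluripotency genes, Pou5f1 (1.63 ± 0.31) and Nanog (1.31 ± 0.37) were higher in Ezh2-null cells at day 8 (background 0.782%). At day 6 Nanog and Sox2 were higher in Ezh2-null cells within set 1 (1.46 ± 0.11 and 1.16 ± 0.13, background 1.51%) and within set 2 (1.06 ± 0.29 and 1.45 ± 0.30, background 2.84%). The arrays of set 2 were not alike. The summed signal of the 3 genes ran from 953.5 to 5528.6 (median 4603.0) in Ezh2-null cells and from 1975.7 to 2010.9 in wild-type cells. Thus 1 Ezh2-null array of set 2 lay below every wild-type array. In Eed-null cells within set 2 they were higher by 1.91 ± 0.32 and 2.15 ± 0.34 (background 2.3%). Hbb-bh1 was lower than in wild type on all of these mutant arrays, also on the Ezh2-null array with low pluripotency signal. The part of these genes in that difference was not tested.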

How the data were processed

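The authors deposited 1 table of array intensity values for 53 Affymetrix arrays hybridised with biotin-labelled RNA extracted with Trizol, per the labels' protocols; the probe summary and the scaling used for them are not given in the sources used here. Array medians ran from 50.5 to 63.0, and the number of arrays limits the precision. Probe sets were named from the platform annotation: 34945 had 1 symbol, 932 several and 9160 none. The lead probe set of each gene entered limma 3.58.1 (R 4.3.3) as log2(signal + 32), with 1 mean per group over all 53 arrays and contrasts between groups; 13807 genes above their array's median on at least 2 arrays were tested, and within-set fits left out the other set's arrays of days 2 and 6. On simulated data for 13807 genes, all 50 genes at each change of 8-fold or more were recovered in each of 5 comparisons, with at most 3 false calls. The simulated arrays had independent noise and no array sets, so this checks the code and not the calls made here. Replicate numbers paired Ezh2-null with wild-type arrays at day 2 (correlations of deviations of 0.57 to 0.70 over 4 pairs) and day 6 (0.38 to 0.72 over 5), where the numbers also follow the array sets, and not elsewhere. The genes, the lists and the tests were chosen with earlier results of these data known. Genes named are all members, the called list genes with the 4 largest changes (others, with levels, were picked after their values were seen), and the 8 nearest to Hbb-bh1 and to Gata1. Alternatives changed scaling, pseudocount, filter, probe sets, moderation, arrays, line and blocks.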

Additional observations from a re-analysis of the deposited data

Results flagged for a closer look

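Of 49 sets of 4 to 10 arrays examined for single far values, 4 had one, where chance alone gives about 1 in 20. Gata1 was low in Eed-null replicate 2 at day 0 (84.7) and high in wild-type replicate 4 at day 2 (109.0, a CJ7 array of set 2). Alas2 was highest in Ezh2-null replicate 1 at day 2 (3.1) and replicate 2 at day 6 (2.3), values at the floor of the signal.

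The change from day 0 to day 6 differed between Ezh2-null and wild-type cells by limma's interaction term for Hbb-bh1 (-3.41), Hba-x (-1.56) and Hbb-y (-1.48), over both array sets. For day 8 against day 0 it differed for Hbb-bh1 (-6.71), Hbb-y (-6.62), Hba-x (-5.04), Alas2 (-1.78) and Nfe2 (-1.18), and for day 8 against day 6 for Hbb-y (-5.14), Hba-x (-3.48) and Alas2 (-1.23). Between Eed-null and wild-type cells the change from day 0 to day 6 differed for Hbb-bh1 (-3.44). The day 6 wild-type arrays behind these terms are split by array set.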

How the results depend on the processing

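Each comparison's count of the 7 genes called was recomputed under 19 settings and without each array; 562 such counts stayed within 1.5 times the main count and 63 did not. With a pseudocount 4 times the main one or a 75th-percentile filter, 3 genes in place of 5 were called for wild type day 8 against day 0, Ezh2-null against wild type at day 8 and its interaction. Fitting only the arrays compared gave 0 in place of 4 for wild type day 8 against day 6, 0 in place of 3 for Ezh2-null and 0 in place of 2 for Eed-null cells at day 6 against wild type, 1 and 0 in place of 3 for the Ezh2-null interactions of day 6 against 0 and day 8 against 6, and 0 in place of 1 for the Eed-null interaction. Array weights gave 1 for the day 6 comparison of Ezh2-null with wild type and for its interaction, and 5 for the interaction of day 8 against 6. Eed-null against wild type at day 6 fell to 1 with a pseudocount of 8 or 4 times the main one, no filter, mean probe sets, array weights, the array set as a block or cell line as a random block.

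Set 1 alone gave 5 for wild type day 6 against 0, Ezh2-null against wild type at day 6 and its interaction, 2 for wild type day 8 against 6 and 1 for the interaction of day 8 against 6. Set 2 alone, or CJ7 alone, gave 1, 1, 1 and, for the last, 5, and 1 for Eed-null against wild type. J1 alone gave 3 for the Eed-null interaction. With the array set as a block, wild type day 8 against 6 gave 2, and day 6 against 0 gave 3 in Ezh2-null and 3 in Eed-null cells. The block is a shift shared by all genotypes, so the wild-type split enters the mutant counts. With no minimum fold, wild type day 6 against 0 gave 6, and Klf1 was called in Eed-null cells at day 0, neuronal stem cells (also at 1.5-fold) and MEF, 1 each.

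With the replicate number as a block, wild type day 8 against 6 gave 2, Eed-null against wild type at day 6 gave 5 and its interaction 5, where the numbers pair nothing (correlations of -0.17 to 0.02 for Eed-null); Ezh2-null against wild type at day 6 kept a count of 3.

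Leaving out 1 array gave 2 to 3 for wild type day 6 against 0, 5 to 5 for day 8 against 0 and 2 to 5 for day 8 against 6 (2 without wild-type day 8 replicate 1). It gave 2 to 3 for Ezh2-null and 1 to 3 for Eed-null against wild type at day 6 (1 without wild-type replicate 1 or 2 or either Eed-null array), and 4 to 5 for Ezh2-null at day 8. For the interactions it gave 1 to 3 (day 6 against 0; 1 without wild-type day 6 replicate 1 or 2 or Ezh2-null day 0 replicate 5), 4 to 5 (day 8 against 0), 1 to 5 (day 8 against 6; 1 without wild-type day 8 replicate 1, 5 without wild-type day 6 replicate 1) and 0 to 3 (Eed-null; 0 without Eed-null day 6 replicate 1, 3 without wild-type day 6 replicate 3, 4 or 5), and 0 to 0 for the other 13 comparisons.

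Directions turned for Hbb-y at day 6 against 0 with the array set as a block in Ezh2-null (1.015) and Eed-null cells (1.794), and with CJ7 alone in wild type (-0.061); for Hbb-y with CJ7 alone in Ezh2-null (0.006) and Eed-null cells (0.055) against wild type at day 6; for Hbb-bh1 in wild type day 8 against 6 in set 1 and with the replicate block (-0.061 each); and for Hba-x within set 2 in Ezh2-null against wild type (0.029) and its interaction (0.119). The cause was not tested. Signal near background limits Alas2, Nfe2 and the mutant globin values.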
